A study of Homo sapiens with 12 samples.

Results

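The MYC, MAX and MXD network was described here in RCH-ACV, an established human pre-BCR+ B-cell precursor ALL line. Its 9 members, MYC, MAX, MXD1, MXD3, MXD4, MXI1, MNT, MLX and MGA, were chosen by symbol and were all listed in both deposited gene tables, of 16875 symbols that stood in either table. The RNA-seq libraries fall into 4 groups of 3, 12 in all: dasatinib-resistant and dasatinib-sensitive cells of clone 2, and dasatinib-resistant and dasatinib-sensitive cells of clone 1. Resistant sublines had been grown in rising concentrations, up to 1 µM, of dasatinib, a multi-kinase inhibitor that acts on the ABL and SRC kinases, and sensitive sublines in vehicle (0.1% DMSO). Each resistant subline is 1 independently generated clone, and the 3 libraries of a group came from RNA isolated from it at separate times.

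The value used per gene was the authors' mean normalized count, a mean over the 6 libraries of a clone that pools resistant and sensitive cells. The levels below therefore describe each clone as a whole, carry no replicate error, and say nothing of how resistant cells differ from sensitive cells, which was not analysed here. Clone 2 had 16848 genes with a summed mean of 24561485, and clone 1 had 15612 genes with a summed mean of 19108037. The depth of single libraries is unknown. The lowest listed mean was 1.13 in clone 2 and 2.52 in clone 1. Why a gene is not listed is not given in the sources used here, so a missing symbol does not show that the gene is silent. Levels of different genes were compared per kilobase (kb) of exon, the union of a gene's annotated exons. The percentile of a gene is the share of genes of the same table with a lower level per kb. Clone 2 lists more genes, down to a lower mean, so percentiles of genes with low levels are not comparable between clones. All 12 markers of B-cell precursors were listed in both tables at the 86.3rd percentile or above in clone 2 and the 85.0th or above in clone 1, led by IGLL1, DNTT, VPREB1 and CD79A. Of 5 T cell markers, CD5 was listed in clone 2 with a mean of 2.07, and none was listed in clone 1. The myeloid markers CD14, MPO, ITGAM and LYZ had means of at most 17.1 in clone 2 and 11.01 in clone 1, but CSF1R had 767.6 in clone 2 and 614.5 in clone 1. Of the plasma cell markers, XBP1 had 4604 in clone 2 and 3383 in clone 1, SDC1 had 630.9 and 317.5, and PRDM1 had 7.84 and 7.13. Of 4 erythroid markers, GATA1 was listed in clone 2 with 2.16 and none in clone 1.

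MYC is a basic helix-loop-helix leucine zipper transcription factor that binds DNA as a dimer with MAX, at the E-box CACGTG, and raises the transcription of genes for growth, ribosome production and metabolism. The MXD proteins (MXD1, MXI1, MXD3 and MXD4), MNT and MGA also pair with MAX, occupy the same kind of site and recruit repressor complexes, so that they compete with MYC for partner and DNA. MLX is a MAX-like protein that pairs with the glucose-responsive factors MLXIP and MLXIPL, and also with MXD1, MXD4 and MNT. The genes of the antagonists and of MAX are scattered over the genome, with MAX on chromosome 14, MXD1 on 2, MXI1 on 10, MXD3 on 5, MXD4 on 4 and MGA on 15, and MNT and MLX both on 17. In B-cell precursors, MYC is known for supporting the proliferation of large pre-B cells.

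Because the E-box is the site that these proteins themselves bind, it was looked for at the start sites of the member genes. RefSeq promoter windows (GRCh38.p14, 250 bases before to 50 bases after a start) were at hand for 8 members, all but MYC, in 13 windows. The palindrome CACGTG, which reads the same on both strands, stood once in the windows of MXD4, MNT and MLX. These 3 of 8 genes (37.5%) compare with 12.2% of the 11158 genes with a window that are listed in both tables, and 3 of 13 windows (23.1%) with 9.07% of the 16193 windows of those genes and 7.26% of all 35116 windows. With so few windows this is a description, and a match is not evidence of binding. The windows of MAX, MXD1, MXI1, MXD3 and MGA did not hold these letters. The 3 stretches are printed 5′ to 3′ on the strand of the gene, with the E-box in capitals, to show where it sits. The motif starts 238 bases before the start site in MXD4, 193 bases before it in MNT and 50 bases before it in MLX.
MXD4 (chr4:2262327-2262359, minus strand): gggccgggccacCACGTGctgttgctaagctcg
MNT (chr17:2401233-2401268, minus strand): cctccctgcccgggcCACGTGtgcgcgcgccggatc
MLX (chr17:42567035-42567070, plus strand): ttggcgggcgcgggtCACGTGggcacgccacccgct

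MYC was by far the highest of the 9 members in both clones. Its mean normalized count was 13153 in clone 2 and 10521 in clone 1, or 4383 per kb in clone 2 and 3506 in clone 1. This placed MYC at rank 193 of 15987 genes with a length in clone 2 and at rank 186 of 14837 in clone 1, the 98.8th percentile in both. Per kb, MYC stood 44.4 times above the median gene in clone 2 and 38.7 times in clone 1. MYC made up 69.4% of the summed level per kb of the 9 members in clone 2 and 69.6% in clone 1. This share depends on the length used and is smaller with the longest coding sequence in place of the exons. By that length MYC had 9657 per kb in clone 2, MAX 4260 and the summed MXD genes, MNT and MGA 5657. In clone 1 these levels were 7725, 3610 and 4288. The other MYC family genes were low: MYCL had a mean of 21.0 in clone 2 and 18.1 in clone 1, while MYCN had 1.34 in clone 2 and was not listed in clone 1.

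MAX, the partner that MYC and its antagonists share, had a mean normalized count of 2045 in clone 2 and 1733 in clone 1. Its level per kb was 461.5 in clone 2 and 391.2 in clone 1, at the 84.0th and 84.3rd percentile. MYC was thus 9.50 times MAX per kb in clone 2 and 8.96 times in clone 1. The summed level per kb of the MAX partners (MYC, MXD1, MXI1, MXD3, MXD4, MNT and MGA) was 11.9 times that of MAX in clone 2 and 11.2 times in clone 1. These ratios depend on the length by which the counts are divided, because most of the MAX messenger RNA is untranslated. With the longest coding sequence in place of the exons, MYC was 2.27 times MAX in clone 2 and 2.14 times in clone 1. They describe transcripts and not the amount of protein.

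**Figure D1:**
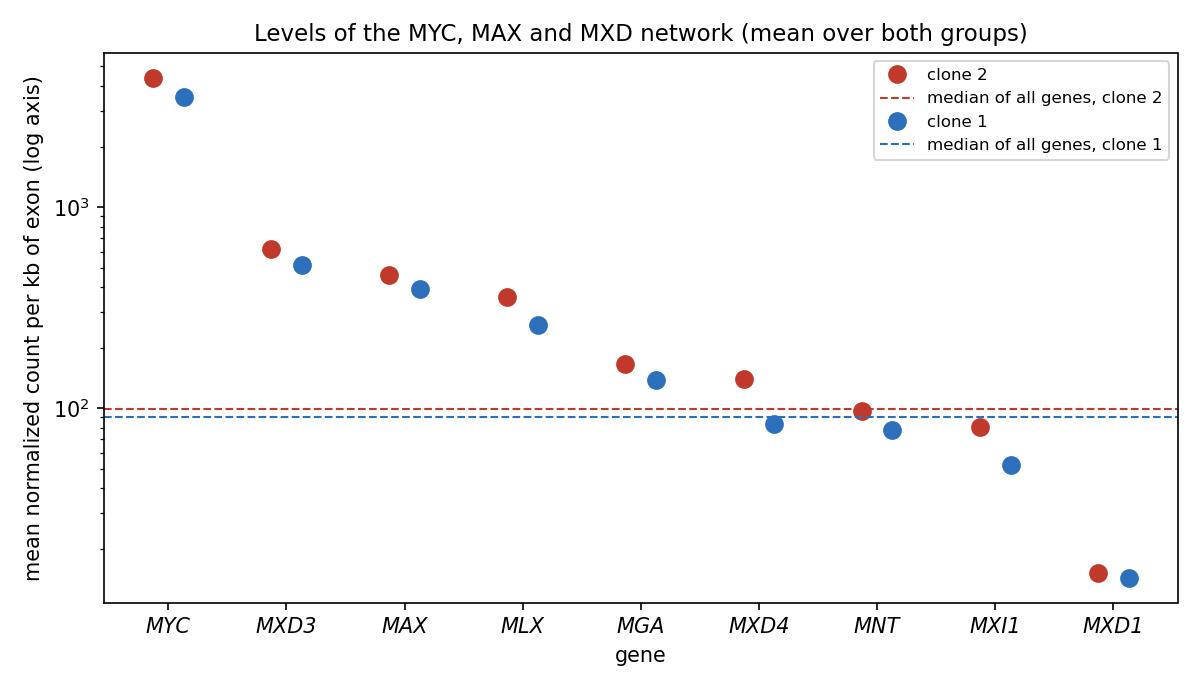
Authors' mean normalized count per kb of exon (log axis) for the 9 network genes, clone 2 in red and clone 1 in blue, each point 1 mean over the 6 libraries of a clone; dashed lines mark the median of all genes of each table. MYC lies at 4383 in clone 2 and 3506 in clone 1, far above MXD3, and MXD1 lies lowest at 15.2 in clone 2 and 14.4 in clone 1.

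Among the MXD genes, MXD3 dominated. MXD3, whose mouse counterpart is expressed in S phase of dividing cells, had a mean normalized count of 3173 in clone 2 and 2661 in clone 1. At 615.6 per kb in clone 2 and 516.4 in clone 1 it was the second of the 9 members, at the 88.4th and 88.5th percentile, and made up 72.4% of the summed MXD level in clone 2 and 77.5% in clone 1 (56.1% and 62.9% with the coding length). With the coding length MAX stood above MXD3, with 4260 against 2726 per kb in clone 2 and 3610 against 2286.5 in clone 1. The exons of MXD3 overlap those of PRELID1 on the opposite strand for 22.5% of their length and those of RAB24 on the same strand for 18.0%, and both neighbours are listed in the tables. How the counting treated shared bases is not given in the sources used here, so the level of MXD3 is uncertain by an amount that was not measured.

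The MXD genes linked to differentiation and quiescence were much lower than MXD3 per kb of exon. MXD4 had a mean normalized count of 980.9 in clone 2 and 588.6 in clone 1, and its level per kb of 139.0 in clone 2 and 83.4 in clone 1 put it at the 57.4th and 48.0th percentile. The place of MXD4 depends on the length, since with the coding length it was at the 82.1st percentile in clone 2 and the 75.6th in clone 1. Its gap to MXD3 was then smaller, with 1564 against 2726 per kb in clone 2 and 938.8 against 2286.5 in clone 1. MXI1, also known as MXD2, had 371.8 in clone 2 and 240.9 in clone 1, at the 46.1st and 38.6th percentile per kb. MXD1, a classical MYC antagonist whose gene is induced as blood cells mature, had 96.9 in clone 2 and 91.4 in clone 1. With 15.2 per kb in clone 2 and 14.4 in clone 1, MXD1 was the last of the 9 members, at the 25.5th and 22.1st percentile, and MYC exceeded it 287-fold in clone 2 and 244-fold in clone 1. This fold is much smaller with the coding length. By that length MYC had 9657 per kb against 146.1 for MXD1 in clone 2, and 7725 against 137.9 in clone 1. The exons of MXD1 overlap those of SNRNP27, also listed in the tables, on the same strand for 3.7% of their length.

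MNT and MGA, the larger antagonists, stood nearer the middle of the tables than MYC and MAX. MNT, which is expressed in dividing and resting cells alike, had a mean normalized count of 842.9 in clone 2 and 679.4 in clone 1, at 96.6 per kb in clone 2 and 77.9 in clone 1. This was close to the median gene, at the 49.6th percentile in clone 2 and the 46.5th in clone 1, and its side of the median turned with the length used: with the longest transcript MNT was at the 54.9th and 52.3rd percentile and with the coding length at the 56.0th and 54.2nd. MGA, which also carries a T-box DNA-binding domain and serves as scaffold of the repressor complex PRC1.6, had 2919 counts in clone 2 and 2427 in clone 1. Its long transcript brings MGA from the third place by counts to the fifth per kb, with 165.4 in clone 2 and 137.5 in clone 1. By this measure MGA was above the median gene, at the 61.3rd percentile in clone 2 and the 60.1st in clone 1. With the coding length MGA fell below it, to the 46.7th percentile in clone 2 and the 44.95th in clone 1. Its place among the members was then 8 in both clones. Summed over the 6 antagonists (4 MXD genes, MNT and MGA), the level per kb was 1113 in clone 2 and 881.8 in clone 1, so that MYC alone was 3.94 times this sum in clone 2 and 3.98 times in clone 1. With the longest transcript the ratio was 2.62 in both clones, and with the coding length it was 1.71 in clone 2 and 1.80 in clone 1.

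MLX was the fourth of the members, with a mean normalized count of 1527 in clone 2 and 1108 in clone 1 and a level per kb of 358.6 in clone 2 and 260.2 in clone 1. Its exons overlap PSMC3IP on the opposite strand for 18.1% of their length. Of its own partners, MLXIP (MondoA) was listed with 2271 counts in clone 2 and 2074 in clone 1, at the 61.0th and 62.3rd percentile per kb. MLXIPL (ChREBP) was not listed in either table. Other factors that read E-boxes ranged widely: USF1 was at the 91.6th percentile in clone 2 and the 90.7th in clone 1 and USF2 at the 83.0th and 81.7th. TFEB was at the 69.6th in clone 2 and the 64.6th in clone 1 and TFE3 at the 57.8th and 53.3rd, while MITF (24.4th in clone 2 and 21.4th in clone 1) and BHLHE40 (24.7th and 20.3rd) were low.

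Genes that act with the network were mostly listed above the median gene. The percentiles of all gene lists were taken with the union of exons among all listed genes. They were not recomputed with other lengths or among genes with a mean of at least 50. In that last setting the median percentile of the 9 members fell to 48.4 in clone 2 and 49.4 in clone 1. Whether these lists stand as high in other dividing cells was not tested. Of 10 corepressor genes of MXD proteins and MNT, 9 were above the median of their table in each clone, with a median percentile of 85.4 in clone 2 and 84.2 in clone 1. The histone chaperone RBBP4 (94.2nd percentile in clone 2 and 93.8th in clone 1), the deacetylase HDAC1 (93.5th and 92.8th), SAP18 (92.7th and 92.8th) and RBBP7 (89.5th and 88.5th) led them. Of 10 genes of the PRC1.6 complex, 9 were above the median in clone 2 and 8 in clone 1, among them CBX3, a reader of methylated histone H3, at the 98.0th and 97.8th percentile. TFDP1, the E2F partner, lay at the 95.9th percentile in both. WDR5, which also serves as a MYC cofactor, was at the 93.1st in clone 2 and the 92.8th in clone 1 and RING1, a ubiquitin ligase, at the 81.6th and 80.4th.

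All 12 MYC cofactor genes were above the median gene in each clone, and the lowest of them was at the 67.0th percentile in clone 2 and the 66.8th in clone 1. The ATPase RUVBL2 (94.1st in clone 2 and 93.9th in clone 1), WDR5, the acetyltransferase KAT2A (90.3rd and 89.95th) and the elongation kinase CDK9 (90.5th and 89.4th) stood highest. Of 14 genes that set the stability of the MYC protein, 13 were above the median in each clone. STUB1 led this list at the 91.7th percentile in clone 2 and the 91.4th in clone 1. Next were SKP2 (90.4th and 90.6th), USP7 (90.9th and 89.8th) and HUWE1 (88.9th and 89.1st), with USP7 above SKP2 in clone 2 only. These genes encode ubiquitin ligase components and, for USP7, a deubiquitinase. PIM1, named because it was the 1 exception after values were seen, was at the 34.5th in clone 2 and the 26.6th in clone 1.

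Of 20 textbook MYC targets, 18 were listed in each table and CCND2 and EIF4A1 in neither, which does not show that they are not expressed. All 18 were above the median gene, with a median percentile of 97.4 in clone 2 and 97.3 in clone 1. The histone-binding protein gene PTMA, the nucleolar genes NPM1 and NCL and the mitochondrial chaperonin gene HSPD1 were the highest of them, at 27675, 14871, 8350 and 10848 per kb in clone 2 and 21046, 10531, 6480 and 8501 in clone 1. By the same measure the 9 network members had a median percentile of 61.3 in clone 2 and 60.1 in clone 1, and 6 of 9 members in clone 2 and 5 of 9 in clone 1 were above the median gene. This count depends on the setting. Among genes with a mean of at least 50, MGA was below the median gene (48.4th percentile in clone 2 and 49.4th in clone 1), as was MXD4 in clone 2 (43.2nd). With the coding length MGA was below it in both clones. MNT was then above it in both clones, as were MXI1 in clone 2 and MXD4 in clone 1. Many of the textbook targets are highly expressed in dividing cells of any kind, and their levels were not tested for a relation to MYC.

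**Figure D2:**
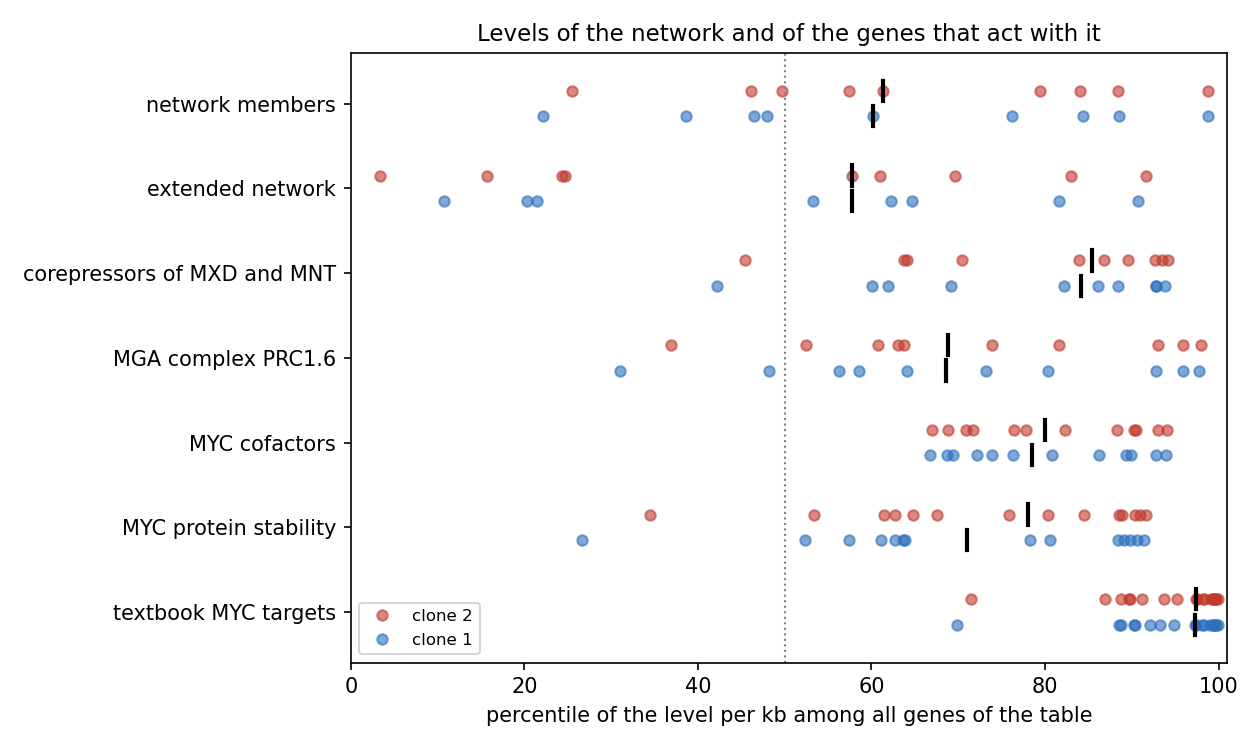
Percentile of the level per kb among all genes of the table for the network members and 6 lists of related genes. The lists include other E-box factors (extended network) and textbook MYC targets. Clone 2 is in red and clone 1 in blue, 1 point per gene, with black bars for the median and a dotted line at the median gene (50). The network spreads from the 25.5th percentile in clone 2 and the 22.1st in clone 1 to the 98.8th, whereas the textbook MYC targets crowd at the upper end with medians of 97.4 in clone 2 and 97.3 in clone 1.

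The clones were set side by side after each table had been scaled to its own sum. The tables were normalized separately, from libraries whose names mark a separate set for each clone, so a difference between clones and a difference between sets cannot be told apart, and with 1 mean per clone no test was made. Each mean also pools resistant and sensitive cells, so a difference in only 1 of these groups cannot be told apart from one in both. In bulk RNA, a smaller share of cells that express a gene also cannot be told apart from less RNA per cell. On this scale MYC was nearly equal, at 535.5 counts per 1000000 of the table sum in clone 2 and 550.6 in clone 1, a ratio of 0.973. MXD4 had the highest ratio of the members, with 39.9 on this scale in clone 2 and 30.8 in clone 1 (ratio 1.30), followed by MXI1 with 15.1 in clone 2 and 12.6 in clone 1 (ratio 1.20). MXD1 had the lowest, with 3.94 in clone 2 and 4.78 in clone 1 (ratio 0.825). Its percentile per kb went the other way, at 25.5 in clone 2, which lists more genes, and 22.1 in clone 1.

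Among the 11890 genes with a mean of at least 50 in both tables, 5% had a ratio above 1.23 and 5% a ratio under 0.822. The ratio of MXD4 was at the 96.8th percentile of these genes, that of MXI1 at the 93.6th and that of MXD1 at the 5.20th. The other members lay between the ratio of MAX (0.918, 16.9th percentile) and that of MLX (1.07, 76.7th percentile). The order of the members by level per kb of exon was the same in both clones from first to last. With the longest transcript MXD4 stood above MGA in clone 2 (232 against 202.2 per kb) and below it in clone 1 (139.2 against 168.1). The MXD4 level exceeded that of MNT by more in clone 2 (139.0 against 96.6 per kb) than in clone 1 (83.4 against 77.9 per kb), and by counts MNT stood above MXD4 in clone 1. Without scaling all 9 ratios were above 1, and the summed mean is larger in clone 2 than in clone 1.

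**Figure D3:**
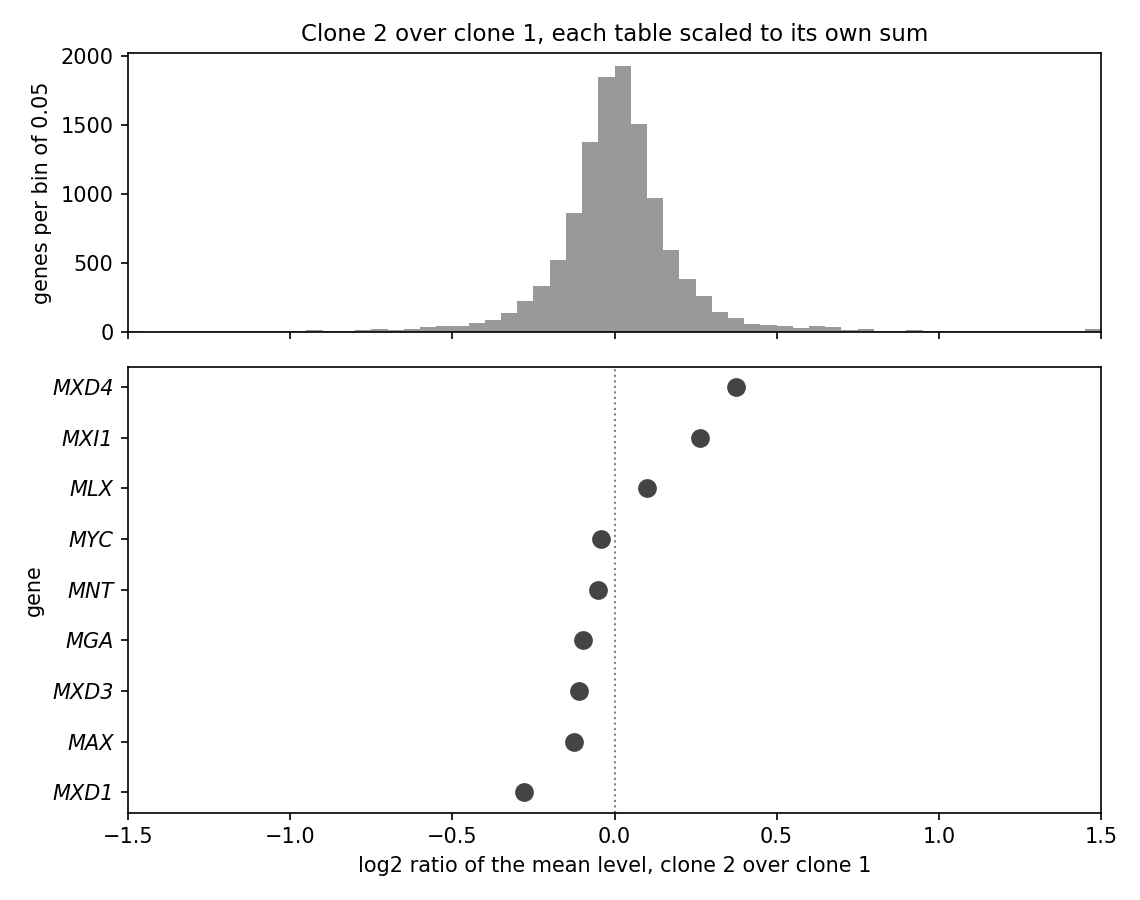
Top, number of genes by log2 ratio of clone 2 over clone 1 for the 11890 genes whose means reach at least 50 in both tables, with genes beyond the axis in the outermost bins; bottom, the same ratio for the 9 members, 1 point each, without error since each clone has 1 mean. MXD4 (0.37) and MXI1 (0.26) lie to the right of 0 and MXD1 (-0.28) to the left, while MYC (-0.04) is close to 0.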

How the data were processed

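Stranded mRNA libraries were made from RNA purified on columns. For the upstream steps the submitters' processing notes list FastQC 0.10.1, bedtools 2.19.0, Picard 1.107, SAMtools, DESeq2, BWA (versions 0.6.2-r126 and 0.7.7-r441) and hg19 as genome build, none of them with its role. Which annotation and counter were used, with which strand setting, is not given in the sources used here. BWA alone does not align reads across introns, and how such reads were handled is not given either. The authors' deposited tables, 1 per clone, hold a signal: the mean over 6 libraries of counts divided by size factors. Their other columns hold the authors' comparison of resistant with sensitive cells (log2 fold change, standard error, test statistic, p and adjusted p) and were not used.

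Means were divided by the union of exons per gene in GENCODE 29 (GRCh38), used for lengths only and matched by symbol for 94.9% of the symbols of clone 2 and 95.0% of clone 1. Excel-style dates had replaced 22 symbols in clone 2 and 21 in clone 1, and 1 symbol in each table stood in 2 rows. These were not repaired. For the clone ratio each mean was divided by the sum of its table. The analysis used Python 3.11.15 with pandas 2.3.3 and numpy 2.4.6, and the percentile and scaling functions were checked on simulated tables. No test was run, because each clone has 1 mean per gene. The design for counts per library therefore could not be applied. Alternatives, run for the members only, were the longest transcript, the coding length, a mean of at least 50 and other scalings between clones. Members and lists were chosen with earlier results of these data known. All members are named, with every gene of the list of other E-box factors, and from each other list the 4 genes highest per kb and those not listed.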

Additional observations from a re-analysis of the deposited data

How the results depend on the processing

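The order of the members depends on the length used, but MYC was first and MXD1 last in both clones with the union of exons, the longest transcript and the coding length. The median percentile of the 9 members was 61.3 in clone 2 and 60.1 in clone 1. With the longest transcript it was 62.1 in clone 2 and 57.5 in clone 1, with the coding length 82.1 and 75.6, and among genes with a mean of at least 50 it was 48.4 and 49.4. Ratios within the network were recomputed with the other lengths after seeing the data. MYC over the sum of its 6 antagonists was 2.62 in both clones with the longest transcript, and 1.71 in clone 2 and 1.80 in clone 1 with the coding length. The summed MAX partners over MAX were 11.85 in clone 2 and 11.2 in clone 1 with the longest transcript, and 3.60 and 3.33 with the coding length. The median ratio of clone 2 over clone 1 was 0.965 over the members. It was 1.24 for the means as deposited, 0.962 with the median log2 ratio over shared genes at 0, and 0.977 when scaled to the sum without the 1% highest genes. In these last settings 3 members were above 1 and 6 under 1, as in the main scaling, and as deposited 9 were above 1. No paired analysis was possible because the tables give 1 mean per clone and no value per library. For the same reason fits with a left-out replicate, with other size factors or without a filter were not run. Genes with low means, such as MXD1, MYCL and MYCN, are those whose values counting error limits most.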
